A study of Gallus gallus with 6 samples.

Results

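The 26S proteasome, the COP9 signalosome and the deubiquitinases of DT40, a chicken B cell line, were compared between Bach2 knockout and wild type cells at the level of their mRNAs. Members were rows of the deposited count table whose gene symbol begins with PSMA to PSMG, COPS, USP, UCHL, OTUD or OTUB as a numbered family name, with at least 20 counts summed over the 6 libraries. Of 17108 genes in the table, 88 met this rule. They are 33 proteasome genes, 7 signalosome genes, 46 deubiquitinase genes and 2 genes that share only the name. The 2 are PSMC3IP, which acts in meiotic recombination, and USP6NL, an activator of RAB GTPases. Another 7 rows matched by name and fell under the minimum: PSMA5, OTUB1, USP35 and USP39 were listed at 0 in every library, and PSMC5, UCHL1 and USP18 had 1, 9 and 10 counts in all. Whether their mRNA was absent or was missed by the annotation or mapping was not tested. The catalytic subunits PSMB5 and PSMB6 were not matched by symbol, nor were PSMC4, PSMD8 and COPS6. These are not analysed here, nor is 1 further deubiquitinase gene. Sums given below cover the members alone.

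Both genotypes were grown as independent cultures, with 3 Bach2 -/- libraries and 3 libraries of the wild type line named Clone 18. Bach2 represses transcription in B cells, through the DNA elements at which NRF factors activate. No other allele or treatment is given in the labels. The number of knockout clones is not stated. The columns are named Bach2ko1 with a replicate number, and if that stands for 1 clone, the knockout and the clone cannot be told apart.

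The proteasome degrades proteins that carry ubiquitin chains. Its barrel, the 20S core, is built of alpha rings, which gate the entry, and beta rings, which hold the cutting sites. The 19S particle on top of it recognises, unfolds and threads the substrates. The signalosome is related to the lid of the 19S particle and removes the ubiquitin-like protein NEDD8 from cullin ligases, and deubiquitinases remove or trim ubiquitin. Roles given below are those known from yeast and mammalian cells.

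The libraries held 12934863, 17779060 and 19316678 counts in knockout replicates 1, 2 and 3, against 20647281, 13878690 and 8999010 in wild type replicates 1, 2 and 3. Values by library follow this order throughout. BACH2 had 34, 61 and 50 counts in the knockout, against 135, 87 and 54 in wild type. Scaled to library size, these were 2.6, 3.37 and 2.57 CPM in the knockout, against 6.6, 6.35 and 6.1 CPM in wild type. Its mRNA was thus lower and not absent (log2 fold change -1.16, edgeR adjusted p = 0.00144). All 8 B cell markers examined were detected in both genotypes. Of these, 6 were lower in the knockout, beside 18.0% of all tested genes at an edgeR adjusted p under 0.05. BLNK was above wild type in every knockout library and did not pass (log2 fold change 0.26, edgeR adjusted p = 0.0514). SYK did not pass either (-0.19, edgeR adjusted p = 0.115). Of the T cell markers, CD3D, CD3E, CD247 and CD8A were tested and all 4 were lower in the knockout, beside that 18.0%. CD3E and CD8A passed the count filter only through their wild type libraries. The count of 4 is thus partly set by the filter and is descriptive only. CD3E had 0.382, 1.05 and 1.03 CPM in the knockout, against 21.9, 14.4 and 15.6 CPM in wild type (log2 fold change -4.33), and CD8A stood at -4.29. The list, most of which was CD3D, had a sum of 87.8 to 110.2 CPM in the knockout and 145 to 181 CPM in wild type. CD4 and CD28 were at 0, and ZAP70 was near 0. LCK, under the count filter, had 2, 8 and 11 counts in the knockout, against 10, 4 and 3 in wild type. A second CD8A row, also under the filter, had 1, 1 and 2 counts in the knockout, against 1, 3 and 1 in wild type. Macrophage markers (MARCO, CSF3R) were at or near 0, and of the fibroblast markers only COL1A2 was detected. The part of these differences in the results below was not tested, and in bulk RNA fewer cells of a type and less RNA per cell cannot be told apart. The second principal component, which held 13.9% of the variance, spread the knockout libraries to both sides of wild type. Knockout replicates 1, 2 and 3 stood at 17.9, -7.92 and -13.3 on it, and wild type between -0.071 and 2.2.

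Most members differed little between the genotypes. Of the 85 members of the 3 classes that were tested (OTUD7A, with 21 counts, was under the count filter), 15 were higher in the knockout, 10 were lower and 60 did not pass at an adjusted p under 0.05 in edgeR's quasi-likelihood test over all 9159 tested genes. Across all tested genes, 30.7% were called, with 12.7% higher and 18.0% lower. At least 2-fold changes past the threshold were seen for 1 member, USP43, and for 6.53% of all tested genes. USP43 passed the count filter only through its wild type libraries. For 79 of the 85 members, or 92.9%, the log2 fold change lay within 0.5 of 0, against 79.7% of all tested genes. Their median log2 fold change was 0.06, beside -0.0014 for all tested genes. Knockout and wild type CPM were apart, with no overlap, for 27 members on the higher side and 15 on the lower, where the share over all tested genes was 21.4% higher and 24.8% lower, or 46.2% in all. Without knockout replicate 1, 16 were higher and 11 lower. In that fit 36.5% of all tested genes were called, with 15.8% higher and 20.7% lower.

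PSMB1, PSME4, USP34 and USP45, which are 4 of the 10 lower members, lie on chromosome 3 by the gene table of the GRCg7b assembly. This chromosome was lower as a whole: 484 of its 688 tested genes, or 70.3%, were called lower and 1.16% higher, and its median log2 fold change was -0.45. For tested genes not placed on that chromosome, 13.6% were higher and 13.7% lower, and of the 81 tested members not on it, 15 were higher and 6 lower. The signalosome, alpha ring, 19S particle, B and T cell markers and the cullin list below have no tested gene on it. For these groups, 13.6% and 13.7% are the closer shares. With that chromosome's median taken out of its genes, 14 members were higher and 5 lower, beside 12.9% and 13.4% of all tested genes, or 26.4% in all. Values relative to that median are given with each of the 4 genes.

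**Figure D1:**
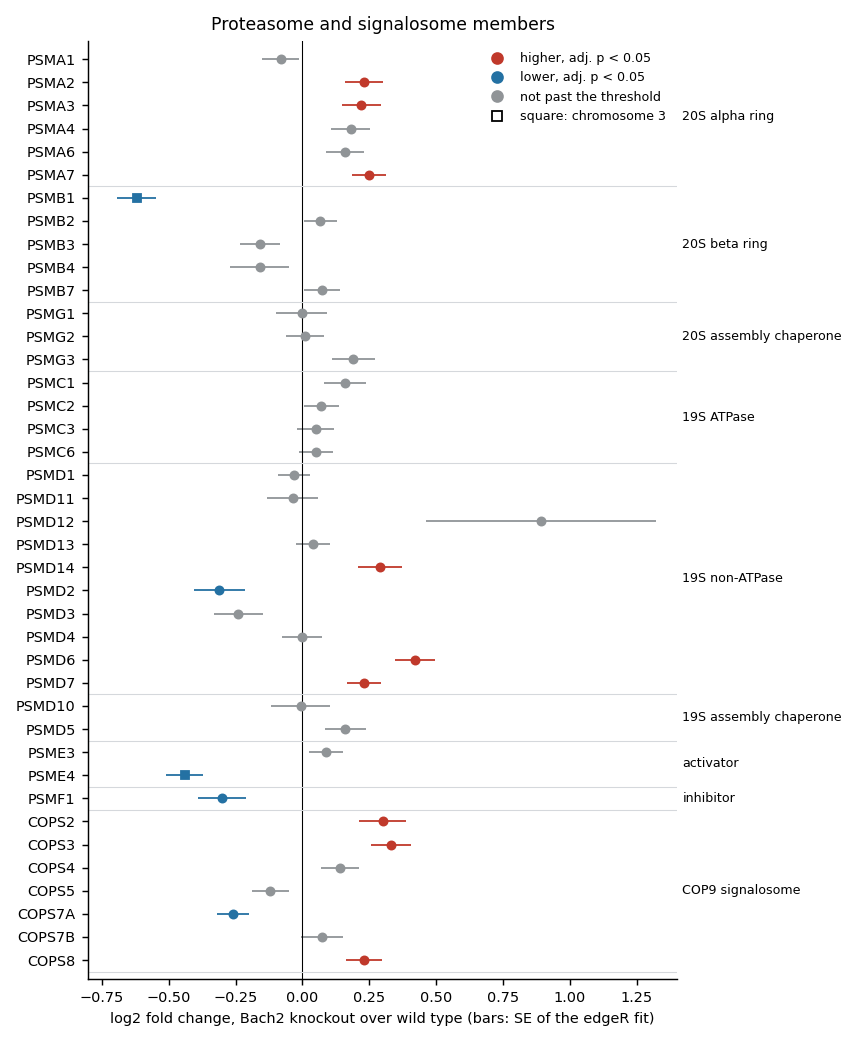
Log2 fold changes of Bach2 knockout over wild type for the 33 proteasome and 7 signalosome members, grouped by role; points are edgeR estimates, bars their SE, and squares mark chromosome 3. Of the 40 genes, 9 were called higher and 5 lower, and the largest called changes were the decrease of PSMB1 (-0.62) and the increase of PSMD6 (0.42).

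Of the 33 proteasome genes, 6 rose in the knockout and 4 fell, while 23 did not pass, with a median log2 fold change of 0.051. That is 18.2% higher and 12.1% lower, beside 12.7% and 18.0% of all tested genes. The 6 were PSMA2, PSMA3 and PSMA7 of the alpha ring and PSMD6, PSMD7 and PSMD14 of the 19S lid. The 4 were the beta subunit PSMB1, the 19S base subunit PSMD2, the activator PSME4 and the inhibitor PSMF1. In the fit without knockout replicate 1, 7 rose and 4 fell. With knockout replicate 2 left out 1 gene rose, with knockout replicate 3 left out 10, and with wild type replicate 1, 2 or 3 left out 1, 3 and 1. Over all tested genes 1163 of 9159 were higher with every library. Without knockout replicate 2 or 3 these were 747 of 9223 and 1331 of 9213. Without wild type replicate 1, 2 or 3 they were 639 of 9195, 643 of 9353 and 645 of 9389. The number of proteasome genes that fell was 2 without each wild type replicate. Of all tested genes 1177, 1238 and 1267 were lower there, against 1647 with every library.

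Of the 6 alpha ring genes, 3 rose and 3 did not pass, beside 12.7% of all tested genes that were higher, and the knockout lay above wild type with no overlap for 5, beside 21.4%. PSMA7 had 614, 597 and 575 CPM in the knockout, against 487, 519 and 499.8 CPM in wild type. Every knockout library was above every wild type library, with a log2 fold change of 0.25 ± 0.064 (SE, edgeR adjusted p = 0.014). PSMA2 had 209, 194 and 182 CPM in the knockout, against 166, 164 and 169.7 CPM in wild type, a log2 fold change of 0.23 ± 0.072 (SE, edgeR adjusted p = 0.0345). PSMA3 had 184, 188 and 166 CPM in the knockout, against 149, 162 and 151 CPM in wild type, and rose by 0.22 ± 0.073 (SE, edgeR adjusted p = 0.0449). Here too the genotypes did not overlap. PSMA4 (0.18) and PSMA6 (0.16) did not pass, though their libraries did not overlap either, and PSMA1 stood at -0.082 with overlapping values. Without knockout replicate 2 and without wild type replicate 1 or 3, none of these 3 calls was kept, and without wild type replicate 2 PSMA2 and PSMA3 lost theirs. The largest adjusted p of the 3 in these fits was 0.162, for PSMA3.

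The beta ring did not move as a block. PSMB1, a structural beta subunit (ENSGALG00000011174), had 182, 206 and 190.1 CPM in the knockout, against 282, 308 and 295 CPM in wild type. The knockout libraries were all well below the wild type ones, and the log2 fold change was -0.62 ± 0.072 (SE, adjusted p = 0.000122 in edgeR), to 0.653 of the wild type level. Relative to the median of chromosome 3, on which it lies, it stood at -0.16 (edgeR adjusted p = 0.119). PSMB7, the subunit with the trypsin-like site, had 239, 264 and 256 CPM in the knockout, against 232, 249 and 239 CPM in wild type, which overlap (0.074 ± 0.068, edgeR adjusted p = 0.444). PSMB2, PSMB3 and PSMB4, structural subunits, ranged from -0.16 to 0.067 and did not pass. PSMB2 and PSMB3 did not overlap between the genotypes, PSMB2 being higher in the knockout and PSMB3 lower. With PSMB1, 1 of the 5 beta genes was thus apart on the higher side and 2 on the lower. Over all tested genes the shares were 21.4% and 24.8%. For PSMB4 the lower mean came from knockout replicate 1, with 238 CPM beside 313 and 342 CPM in the other knockout libraries and 322 to 347 CPM in wild type; without that library it stood at -0.021.

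Summed per length, the 6 alpha genes came to 1162, 1157 and 1080 RPKM in the knockout, against 974, 1039 and 1009 RPKM in wild type. The 5 beta genes came to 866, 1002 and 1008 RPKM in the knockout, against 1041, 1108 and 1057 RPKM in wild type. Alpha sums were thus above those of wild type in all 3 knockout libraries, and beta sums below. Leaving PSMB1 out of the beta sum gave 694, 808 and 829 RPKM in the knockout, against 779, 825 and 786 RPKM in wild type, which overlap. The 14 genes of the 19S particle summed to 2168, 2243 and 2265 RPKM in the knockout, against 2095, 2184 and 2122 RPKM in wild type. These sums overlap too. In CPM, which take no account of length and use TMM-adjusted totals, the direction of the mean differed. The same 14 genes averaged 3895 summed CPM in the knockout and 3954 in wild type, against 2225 and 2134 summed RPKM. Over all tested genes the median log2 fold change was 0.023 on RPKM (pseudocount 0.5), against -0.0014 in the main fit.

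**Figure D2:**
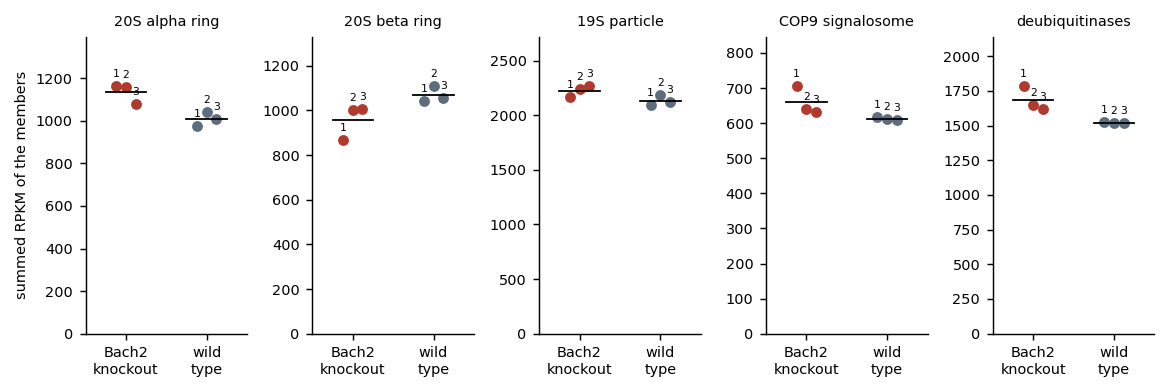
Summed RPKM of the members of 5 groups in each library (points, numbered by replicate; lines are means of 3), Bach2 knockout beside wild type, with axes from 0. The beta ring sums of the knockout lie below those of wild type, lowest in replicate 1 (866), while those of the alpha ring, signalosome and deubiquitinases lie above.

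Of the 14 tested genes of the 19S particle, 3 rose, or 21.4%, beside 12.7% of all tested genes. Another 1 fell, or 7.14%, beside 18.0%. The 3 that rose all encode lid subunits. PSMD6, a lid subunit (ENSGALG00000007315), had 199, 185 and 192 CPM in the knockout, against 143, 154 and 131 CPM in wild type. The log2 increase was 0.42 ± 0.075 (SE, edgeR adjusted p = 0.00177), and the call was kept in all 14 alternatives. PSMD14, the lid's own deubiquitinase, which removes chains from substrates as they are threaded in, had 113, 125 and 107 CPM in the knockout, against 87.3, 98.9 and 96.6 CPM in wild type. PSMD7, its partner in the lid, had 342, 345 and 341 CPM in the knockout, against 278, 302 and 298 CPM in wild type. The genotypes were apart for both, with log2 fold changes of 0.29 ± 0.083 for PSMD14 (SE, edgeR adjusted p = 0.0221) and 0.23 ± 0.064 for PSMD7 (SE, edgeR adjusted p = 0.022). The call of PSMD14 was lost without knockout replicate 2 or wild type replicate 1 or 3 (highest edgeR adjusted p = 0.105), and that of PSMD7 without any of these or wild type replicate 2 (highest 0.0874).

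PSMD2, a large scaffold subunit of the base that docks shuttle factors, fell. It had 560.5, 667 and 745 CPM in the knockout, against 806, 831 and 805 CPM in wild type, a log2 fold change of -0.31 ± 0.094 (SE, edgeR adjusted p = 0.0297). Knockout replicate 1 was the lowest, and without it the value was -0.20 (edgeR adjusted p = 0.0116). The call was lost without knockout replicate 2 or any wild type replicate (highest edgeR adjusted p = 0.1). PSMD3, a lid subunit, was likewise lowest in knockout replicate 1 and did not pass (-0.24 ± 0.091, edgeR adjusted p = 0.0647). The ATPases that unfold substrates, PSMC1, PSMC2, PSMC3 and PSMC6, lay between 0.05 and 0.16. None of the 4 passed in edgeR or DESeq2 with every library, and 0 had an unadjusted p under 0.05. PSMC1 passed in at least 1 fit with a library left out (lowest edgeR adjusted p = 0.0496). PSMD1, PSMD4, PSMD11 and PSMD13 lay between -0.037 and 0.039. The rows of PSMD4 and PSMD12 each carry 2 gene symbols, so their counts may not be of these genes alone. PSMD12 had the largest estimate of the proteasome genes (0.89 ± 0.43, edgeR adjusted p = 0.138) on few counts, with 105, 57 and 46 in the knockout, against 40, 35 and 24 in wild type. In CPM it stood at 8.03 in knockout replicate 1 and at 3.15 and 2.36 in the other knockout libraries, against 1.96, 2.56 and 2.71 in wild type, and without that replicate at 0.23 on the log2 scale.

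PSME3 and PSME4 encode caps of the core other than the 19S particle. PSME4, or PA200, a nuclear activator, had 137, 144 and 128 CPM in the knockout, against 181, 185 and 188 CPM in wild type. The genotypes were far apart and the gene fell by 0.44 ± 0.07 (log2, SE, edgeR adjusted p = 0.000971). Against the median of chromosome 3, which carries it, the value was 0.017 (edgeR adjusted p = 0.88). PSME3, the nuclear activator PA28 gamma, had 264, 264 and 247 CPM in the knockout, against 240.2, 247 and 242 CPM in wild type, and did not pass (0.089 ± 0.064, edgeR adjusted p = 0.324). PSMF1, a regulator first described as a proteasome inhibitor, had 76.5, 94.3 and 94.9 CPM in the knockout, against 114, 107 and 106 CPM in wild type. All knockout values were below wild type, that of replicate 1 the most, with a log2 fold change of -0.30 ± 0.09 (SE, edgeR adjusted p = 0.027). Without knockout replicate 1 it stood at -0.21 (edgeR adjusted p = 0.0155), and without any 1 of the wild type replicates it did not pass (highest edgeR adjusted p = 0.111). Of the assembly chaperones of the core, PSMG1, PSMG2 and PSMG3 lay between -0.0023 and 0.19. Those of the 19S base, PSMD5 and PSMD10, stood at 0.16 and -0.0069. None of these 5 passed in edgeR or DESeq2 with every library, and 1, PSMG3, had an unadjusted p under 0.05. PSMG3 passed without knockout replicate 1 (0.22, edgeR adjusted p = 0.0254). PSMD5 passed in at least 1 fit with a library left out (lowest edgeR adjusted p = 0.0434).

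Of the 7 signalosome genes, 3 rose in the knockout and 1 fell, while 3 did not pass (median 0.14), beside 12.7% higher and 18.0% lower over all tested genes, and the counts were the same without knockout replicate 1. COPS3 (ENSGALG00000004834), a scaffold subunit, had 272, 248 and 238 CPM in the knockout, against 191, 209 and 205 CPM in wild type. COPS2, the scaffold subunit that contacts cullins, had 216, 182 and 172 CPM in the knockout, against 157, 154 and 152 CPM in wild type. COPS8, the smallest scaffold subunit, had 105, 111 and 104 CPM in the knockout, against 87.4, 91.9 and 94.5 CPM in wild type. No library of one genotype reached into the range of the other for these genes. Their log2 fold changes were 0.33 ± 0.074 for COPS3, 0.30 ± 0.087 for COPS2 and 0.23 ± 0.068 for COPS8 (SE), with edgeR adjusted p of 0.00716, 0.025 and 0.0281. COPS3 kept its call in all 14 alternatives. COPS2 lost it without any wild type replicate (highest edgeR adjusted p = 0.0888), and COPS8 without any of these or knockout replicate 2 (highest 0.115).

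COPS7A and COPS7B are alternative versions of one scaffold subunit. COPS7A had 187, 185 and 183 CPM in the knockout, against 221, 220 and 222 CPM in wild type, and fell by 0.26 ± 0.061 (log2, SE, edgeR adjusted p = 0.00939), a call kept in all 14 alternatives. COPS7B had 131, 112 and 115 CPM in the knockout, against 116, 115 and 109 CPM in wild type, and did not pass (0.074 ± 0.078, edgeR adjusted p = 0.51). Per length, COPS7A averaged 126 ± 1.34 RPKM in the knockout and 147 ± 1.11 RPKM in wild type, and COPS7B 114 ± 10.2 RPKM in the knockout and 106 ± 3.8 RPKM in wild type (SD, n = 3 each). The levels of this pair were thus closer to each other in the knockout, although the change of one against the other was not tested. COPS5, the catalytic subunit that cuts NEDD8 off cullins, had 129, 119 and 124 CPM in the knockout, against 139.6, 131 and 134 CPM in wild type (-0.12 ± 0.068, edgeR adjusted p = 0.2). COPS4 stood at 0.14 and did not pass. GPS1, the subunit not named COPS, stood at 0.035.

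**Figure D3:**
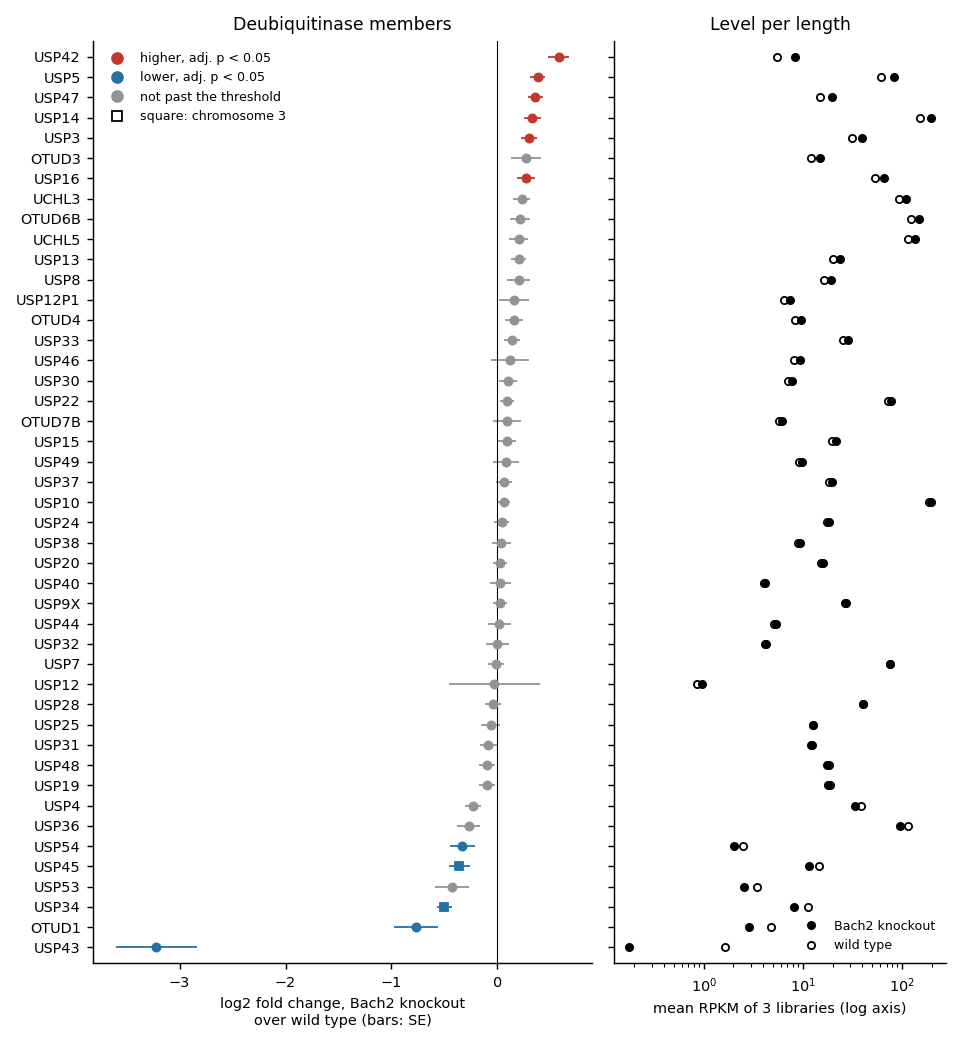
Left, log2 fold changes of Bach2 knockout over wild type for the 45 tested deubiquitinases (bars: SE; squares: chromosome 3). Right, their mean RPKM in the knockout (filled) and in wild type (open) on a log axis; USP43, the lowest point, is the member with a large change (-3.22) and has a low level in both genotypes.

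Among the 45 tested deubiquitinases, 6 rose in the knockout and 5 fell, while 34 did not pass (median 0.058). That is 13.3% higher and 11.1% lower, beside 12.7% and 18.0% of all tested genes. With knockout replicate 1 left out, 6 rose and 6 fell, with a median of 0.019. In this class knockout replicate 1 was the knockout library farthest from the wild type mean for 30 of 45 genes, or 66.7%, where that was so for 54.1% of all tested genes. The number that rose was 11 without knockout replicate 3, where 1331 of 9213 tested genes were higher, against 1163 of 9159 with every library. The number that fell was 3 without knockout replicate 2 or any wild type replicate. Of all tested genes 1272 were lower without knockout replicate 2 and 1177 to 1267 without a wild type replicate, against 1647 with every library. Per length the class spanned a wide range: USP10 and USP14 averaged 198 and 197 RPKM in the knockout, against 186 and 153 RPKM in wild type, USP12 0.968 RPKM in the knockout, against 0.867 RPKM in wild type, and USP43 0.177 RPKM in the knockout, against 1.64 RPKM in wild type.

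USP14 and UCHL5 sit on the 19S particle and trim chains of docked substrates. USP14 had 469.6, 415 and 391 CPM in the knockout, against 329, 351 and 331 CPM in wild type, and rose by 0.33 ± 0.079 (log2, SE, edgeR adjusted p = 0.00862). UCHL5 had 237, 201 and 195 CPM in the knockout, against 168, 192 and 188 CPM in wild type. Its genotypes did not overlap, but it did not pass (0.20 ± 0.089, edgeR adjusted p = 0.107). It passed without knockout replicate 3 alone among the alternatives (0.28, edgeR adjusted p = 0.0434). USP5, which takes apart unanchored ubiquitin chains, had 232, 254 and 252 CPM in the knockout, against 203, 180.1 and 185 CPM in wild type (0.38 ± 0.074, SE, edgeR adjusted p = 0.00303). Its paralog USP13, at 66.4, 62.5 and 64.8 CPM in the knockout, against 57.4, 54 and 57 CPM in wild type, was apart as well and did not pass (0.20 ± 0.073, edgeR adjusted p = 0.0573).

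USP42 (ENSGALG00000003378), a nuclear enzyme that acts on p53 in human cells, had the largest increase of all members past the threshold. It had 29.6, 28.8 and 28.1 CPM in the knockout, against 18.1, 18.7 and 21.6 CPM in wild type, a log2 fold change of 0.58 ± 0.10 (SE, edgeR adjusted p = 0.00177). USP47 had 105, 110 and 101 CPM in the knockout, against 77, 81.8 and 87.7 CPM in wild type (0.36 ± 0.075, SE, edgeR adjusted p = 0.00451). Both were apart in every library and, like USP5 and USP14, kept their calls in all 14 alternatives. USP3 and USP16 remove ubiquitin from histone H2A. USP3 had 58.9, 57.5 and 55.6 CPM in the knockout, against 47, 44 and 48.4 CPM in wild type (0.30 ± 0.077, SE, edgeR adjusted p = 0.0127), and USP16 had 194, 164 and 154 CPM in the knockout, against 142, 145 and 137 CPM in wild type (0.27 ± 0.089, SE, edgeR adjusted p = 0.0392). USP3 lost its call without wild type replicate 2 (edgeR adjusted p = 0.0722). USP16 was highest in knockout replicate 1 and lost its call without knockout replicate 2 or any wild type replicate (highest 0.133).

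USP43 (ENSGALG00000017417) fell more than any other member. It had 3, 5 and 4 counts in the knockout, against 49, 33 and 17 in wild type, or 0.229, 0.277 and 0.205 CPM in the knockout, against 2.39, 2.41 and 1.92 CPM in wild type. Although the gene was low in wild type as well, every knockout library was far below, with a log2 fold change of -3.22 ± 0.38 (SE, edgeR adjusted p = 0.000129). It passed the count filter only through its wild type libraries. A gene as low in both genotypes as USP43 was in the knockout would not have been tested. The fold depends on how low values are treated, and it ran from -3.35 to -1.66 over the alternatives. OTUD1 had 4.36, 6.86 and 7.4 CPM in the knockout, against 12.8, 8.84 and 10.3 CPM in wild type (-0.77 ± 0.21, SE, edgeR adjusted p = 0.0196). It was lowest in knockout replicate 1 and highest in wild type replicate 1, without which it did not pass (edgeR adjusted p = 0.117). USP54 had 15.1, 13.6 and 14 CPM in the knockout, against 18.8, 16.3 and 18.7 CPM in wild type (-0.33 ± 0.12, SE, edgeR adjusted p = 0.0493). Its call was kept in 1 of 14 alternatives, without knockout replicate 1 (edgeR adjusted p = 0.0213), and its adjusted p reached 0.16.

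The other lower deubiquitinases lie on chromosome 3. USP34, a very large enzyme linked to Wnt signalling, had 87, 93.9 and 89.4 CPM in the knockout, against 127, 123 and 133 CPM in wild type (-0.50 ± 0.068, SE, edgeR adjusted p = 0.000334). USP45, which acts on a DNA repair nuclease, had 96.8, 97.4 and 92.9 CPM in the knockout, against 102, 132 and 136 CPM in wild type (-0.36 ± 0.1, SE, edgeR adjusted p = 0.0201). Wild type replicate 1 came close to the knockout values for USP45, which lost its call without knockout replicate 2 or wild type replicate 2 or 3 (highest edgeR adjusted p = 0.0977). Relative to the median of the chromosome, USP34 stood at -0.05 (edgeR adjusted p = 0.627) and USP45 at 0.089 (edgeR adjusted p = 0.557).

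**Figure D4:**
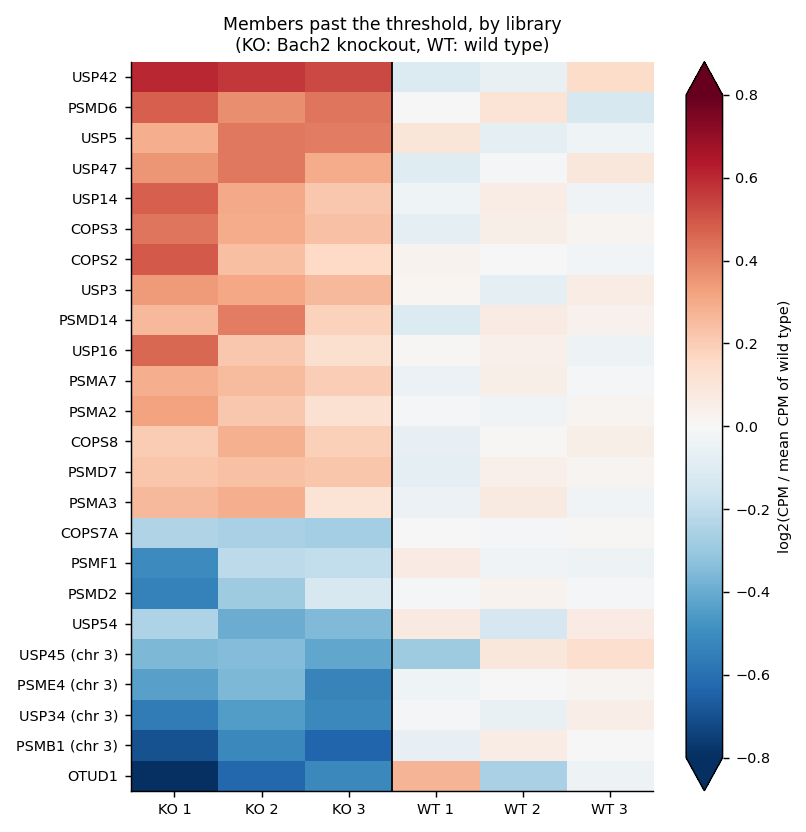
Log2 ratio of each library's CPM to the wild type mean for 24 of the 25 members past the threshold (USP43, off the scale, is left out), knockout libraries left of wild type. Within each row the 3 knockout libraries have one colour, and replicate 1 is the strongest of them in rows such as COPS2, USP16, PSMD2 and PSMF1.

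Some deubiquitinases with broad roles showed no difference beyond their spread. USP7, which stabilises MDM2 and many nuclear proteins, had 297, 256 and 252 CPM in the knockout, against 272, 268 and 272 CPM in wild type (-0.015 ± 0.076, edgeR adjusted p = 0.905). USP9X, USP10, USP22 and USP24 lay between 0.024 and 0.094. Of the paralogs USP25 and USP28, the first averaged 12.6 ± 1.63 RPKM in the knockout and 12.8 ± 0.238 RPKM in wild type, the second 40.4 ± 2.92 RPKM in the knockout and 40.7 ± 1.88 RPKM in wild type (SD, n = 3 each). USP4 was lower in every knockout library than in any wild type library and did not pass (-0.23, edgeR adjusted p = 0.0508, and 0.00229 without knockout replicate 1). Its paralog USP15 stood at 0.087, with overlapping values. USP12 was low, with 16, 17 and 19 counts in the knockout, against 33, 11 and 4 in wild type. The row USP12P1, named as a pseudogene of it, held 609, 668 and 632 counts in the knockout, against 685, 423 and 349 in wild type. Reads may be shared between these copies, so that neither value is certain. OTUD6B, the OTU enzyme with the highest level per length, had 510.4, 405 and 393 CPM in the knockout, against 370.2, 369.8 and 387 CPM in wild type. Its genotypes did not overlap, but it did not pass (0.21 ± 0.095, edgeR adjusted p = 0.112) and stood at 0.09 without knockout replicate 1.

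**Figure D5:**
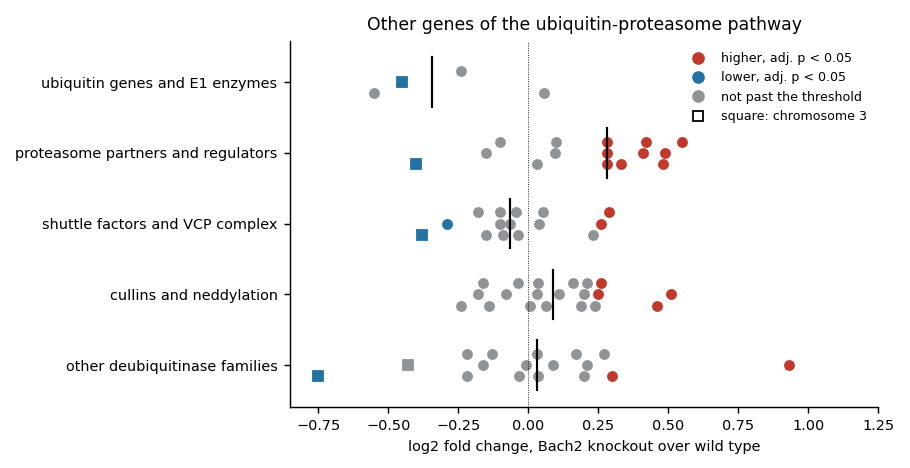
Log2 fold changes of Bach2 knockout over wild type for genes of 5 lists of the pathway outside the member families (points: genes; squares: chromosome 3; black lines: list medians). The median of the proteasome partners and regulators stands at 0.28, and that of each of the other 4 lists between -0.34 and 0.089.

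Around the complexes, genes that build, localise or regulate the proteasome made up a list of which 15 were tested. This list, like the others, was chosen with earlier results of these data known, so its share of called genes is descriptive only. In the knockout 9 rose and 1 fell, while 5 did not pass (median 0.28), beside the 12.7% and 18.0% of all tested genes, and the counts were the same without knockout replicate 1. SHFM1, a small lid subunit outside the PSM names, had 222, 203 and 192 CPM in the knockout, against 139, 151 and 130.4 CPM in wild type, and rose by 0.55 ± 0.08 (log2, SE, edgeR adjusted p = 0.000519). NFE2L2, or NRF2, an activator of antioxidant genes, had 33.9, 24.5 and 29.8 CPM in the knockout, against 22.3, 21 and 19.1 CPM in wild type (0.49 ± 0.13, SE, edgeR adjusted p = 0.0153). ZFAND2A, a stress-induced proteasome adaptor, had 46.8, 54.7 and 52.7 CPM in the knockout, against 35, 39.3 and 36.4 CPM in wild type (0.48 ± 0.091, SE, edgeR adjusted p = 0.00256). All 3 were apart between the genotypes. NFE2L2 lost its call without wild type replicate 2 or 3 (highest edgeR adjusted p = 0.0633).

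The rest of that list includes the known control circuit of proteasome genes. NFE2L1, the activator of proteasome genes, stood at 0.41 ± 0.14 (SE, edgeR adjusted p = 0.0427). Its values were 187, 252 and 298 CPM in the knockout, against 179, 196 and 182 CPM in wild type, so that knockout replicate 1 lay inside the wild type range; of the fits with 1 library left out, the call was kept in the fit without that library (0.57). NGLY1, which activates the NFE2L1 protein by removing its glycans, rose by 0.33, and DDI2, the protease that cuts it, stood at -0.15 and did not pass. POMP, which matures the core, rose by 0.28, as did TXNL1, a thioredoxin bound to the proteasome, and UBE3C, a ligase at the proteasome, and the activator ZFAND5 rose by 0.42. These 5 rising genes each lost their call without at least 1 library: NGLY1 without wild type replicate 1 (edgeR adjusted p = 0.0586), POMP without knockout replicate 2 or wild type replicate 1 or 3 (highest 0.118), TXNL1 and UBE3C without knockout replicate 2 or any wild type replicate (highest 0.0757 and 0.126), and ZFAND5 without knockout replicate 2 or wild type replicate 1 or 2 (highest 0.0656). AKIRIN2, which carries proteasomes into the nucleus, fell by 0.40. Its value against the median of chromosome 3, which carries it, was 0.053.

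Of the genes for ubiquitin itself, RPS27A, a ubiquitin fused to a ribosomal protein, had 498, 619 and 529.6 CPM in the knockout, against 698, 804 and 744 CPM in wild type. It fell by 0.45 ± 0.09 (log2, SE, edgeR adjusted p = 0.00364). Against the median of chromosome 3, which carries it, the value was 0.0053 (edgeR adjusted p = 0.971). UBB, a chain of ubiquitin units in one gene, had 647, 807 and 848 CPM in the knockout, against 784, 976 and 958 CPM in wild type, which overlap (-0.24 ± 0.11, edgeR adjusted p = 0.129). Of that list, 1 of 4 tested genes fell and 3 did not pass (median -0.34), beside 18.0% lower over all tested genes. Without knockout replicate 1, 2 fell, the added one being UBA7 (-0.31), an activating enzyme of the ubiquitin-like protein ISG15.

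Of the list of cullins and neddylation genes, which also holds the signalosome subunit GPS1, 4 of 20 rose and 16 did not pass (median 0.089). Over all tested genes 12.7% were higher and 18.0% lower, and over those not placed on chromosome 3, where this list has no gene, 13.6% and 13.7%. None fell in edgeR or DESeq2, and 0 were lower at an unadjusted p under 0.05. CUL4A rose by 0.51, DCUN1D5, which helps attach NEDD8, by 0.46, CUL1 by 0.26 and CUL2 by 0.25. CUL1 lost its call without any wild type replicate (highest edgeR adjusted p = 0.0784) and CUL2 without any of these or knockout replicate 2 (highest 0.16). Without knockout replicate 1, 5 rose and 2 fell; the 2 were CUL3 and CUL5. Of the shuttle factors and the VCP complex, of which 15 were tested, 2 rose in the knockout and 2 fell, while 11 did not pass (median -0.065), beside 12.7% higher and 18.0% lower over all tested genes. FAF2 rose by 0.29, as did RAD23B by 0.26, and UBXN7 fell by 0.29. UBXN2A, carried by chromosome 3, fell by 0.38, and its value against that median was 0.077. Its call was kept in 2 of 14 alternatives. VCP, the segregase itself, stood at 0.054. FAF2 lost its call without wild type replicate 3 (edgeR adjusted p = 0.0513), UBXN7 without wild type replicate 1 or 3 (highest 0.0964), UBXN2A without each library but knockout replicate 1 (highest 0.152), and RAD23B without each library but knockout replicate 3 (highest 0.16).

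Of 17 tested genes listed under other deubiquitinase families, 2 rose in the knockout and 1 fell, while 14 did not pass (median 0.03). That stands beside 12.7% higher and 18.0% lower over all tested genes. STAMBPL1, an enzyme for chains linked through lysine 63, had 34.6, 41.9 and 40.9 CPM in the knockout, against 17.3, 23 and 22.1 CPM in wild type. It rose by 0.93 ± 0.13 (log2, SE, edgeR adjusted p = 0.000355), more than any member, and kept its call in all 14 alternatives. YOD1, an OTU enzyme, rose by 0.30 and lost its call without knockout replicate 2 or wild type replicate 2 or 3 (highest edgeR adjusted p = 0.158). ZUFSP had 32.8, 38.6 and 32.5 CPM in the knockout, against 56.8, 59.2 and 58.8 CPM in wild type, and fell by 0.75 ± 0.09 (SE, edgeR adjusted p = 0.000147). It was lower against the median of chromosome 3, which carries it, as well (-0.30, edgeR adjusted p = 0.0333). CYLD and TNFAIP3, which restrain NF-kB signalling, stood at -0.0087 and -0.43 and did not pass; TNFAIP3 is carried by chromosome 3, and its value against that median was 0.019. Without knockout replicate 1, 2 genes of this list rose and 3 fell, the added ones being ATXN3 and VCPIP1.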

How the data were processed

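RNA sequencing of 6 libraries was used, 3 Bach2 knockout and 3 wild type, grouped by the genotype label. The authors deposited raw counts per Ensembl gene, read as such because the values are whole numbers, and a second table of the same genes whose deposited values were read as RPKM, since they scale with the counts by gene and by library. The submitters' processing notes name the build galGal4 and the tools limma, edgeR, Subread 1.5.0, TopHat2 2.1.0 and bcl2fastq 1.8.4; the annotation and whether strand was counted are not given in the sources used here, so reads of a gene and its antisense partner may be mixed.

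Counts were filtered with filterByExpr (9159 genes), scaled by TMM and tested with edgeR 4.0.16 in R 4.3.3 (glmQLFit, glmQLFTest, two-sided, no covariates, Benjamini-Hochberg over all tested genes, threshold 0.05). CPM are counts per TMM-adjusted total; the SE is the absolute log2 fold change over the square root of F. The test was checked on counts simulated from the means and dispersions fitted to these data, with known changes added. The simulation held no divergent library, chromosome 3 shift or clone effect, so it does not check the calls against these. Alternatives were library totals, DESeq2 size factors, DESeq2 1.42.0, no count filter, limma 3.58.1 on log2(RPKM + 0.5) and log2(RPKM + 0.1), the replicate number as a block, an offset of the chromosome 3 median, and each library left out. Chromosomes came from a GRCg7b gene table, which differs in build. Levels between genes are compared in RPKM only. Promoter motifs were not analysed here. Members, lists and alternatives were chosen with earlier results of these data known. Genes named are 12 fixed genes, of which PSMB5, PSMB6 and OTUB1 gave no member, the called members with the largest changes, members on chromosome 3 and up to 3 called genes per list; others were named after their values were seen. Replicates are independent cultures, and p-values measure the spread between them. If the knockout is 1 clone, they do not measure the spread between knockout clones. Library totals of 8999010 to 20647281 counts limit low genes such as USP43 and OTUD7A.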

Additional observations from a re-analysis of the deposited data

How the results depend on the processing

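Counts of called genes moved with the libraries in the fit. With 1 library left out, the number of higher genes ran from 639 to 1483 and of lower genes from 1177 to 1953 over all genes. The higher and lower counts ran from 1 to 10 and 2 to 5 in the proteasome, 1 to 3 and 1 to 1 in the signalosome, and 4 to 11 and 3 to 6 among deubiquitinases. The lower count of the proteasome was 2, and that of the deubiquitinases 3, with limma on RPKM at either pseudocount (0.5 or 0.1) and with members on chromosome 3 left out, a count added after the data were seen. With the chromosome 3 offset both were 2. On RPKM, PSMD2, PSMF1, USP45 and USP54 were among the named genes that missed the threshold. Relative to chromosome 3 the sign turned for PSME4 (0.017), RPS27A (0.0053), UBXN2A (0.077) and USP45 (0.089), and for AKIRIN2 (0.053) and TNFAIP3 (0.019), which were named after their values were seen. USP7 lay at 0 within its error and turned to 0.021 with library totals, 0.0007 with DESeq2 size factors, 0.00058 with DESeq2, 0.014 on RPKM at either pseudocount, and 0.02 and 0.047 without knockout replicate 2 or 3, and with 1 library left out it ran from -0.091 to 0.047. Of the values of genes named by rule under alternatives, 502 kept direction and side of the threshold, 88 kept the direction and lost the call, 1 gained it and 11 changed sign.

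The deviations of same-numbered libraries of the genotypes had correlations of -0.00423, 0.102 and -0.0558 for numbers 1, 2 and 3. Those of differently numbered libraries ran from -0.0676 to 0.0664. The labels do not say what the numbers mark, and correlations from so few libraries cannot tell whether they mark a pairing. With the replicate block 1009 genes were higher and 1567 lower, and in that fit COPS8, PSMA2, PSMA3, UBXN2A and USP54 missed the threshold among the genes named by rule. Depth limits OTUD7A, PSMD12, USP12 and USP43, which have few counts.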
